A study of Mus musculus with 4 samples.

Results

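The 10 genes described here mark macrophages of fetal tissues: Csf1r, Cx3cr1, C1qa, C1qb, C1qc, Fcgr3, Mrc1, Adgre1, Cd68 and Lyz2. They were chosen by name as known macrophage genes, and all 10 had probe sets on the array, 15 in all, out of 18193 genes with at least 1 probe set of their own. Each gene is represented by its brightest probe set, with any dimmer ones given beside it. RNA came from the trachea of C57BL/6 mouse embryos at embryonic day 16, with 2 samples from wild-type embryos and 2 from embryos labelled as a1H knockout, numbered 1 and 2 within each genotype. a1H is taken to mean Cacna1h, the gene of the calcium channel Cav3.2, and the study's design text speaks of homozygous embryos. The labels do not name the mutant allele or say whether a sample is 1 embryo or a pool, so p-values below reflect only how these samples vary, and that variation may be technical.

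Tissue macrophages of the embryo arise from precursors of the yolk sac and the fetal liver, settle in developing organs and clear dying cells there. Their survival depends on the receptor encoded by Csf1r and its ligands CSF1 and interleukin 34, and their gene program depends on the transcription factor PU.1, the product of Spi1. In a whole organ they are a minority among cartilage, muscle, epithelial and mesenchymal cells. In such bulk RNA a lower number of macrophages and less RNA per macrophage cannot be told apart.

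PU.1 binds purine-rich sites with the core GAGGAA, so sequence upstream of 4 members is shown with each GAGGAA, or its other-strand form TTCCTC, in capitals. C1qb and C1qc are shown because they are neighbours in 1 gene cluster whose signals are set side by side below, and Mrc1 and Cx3cr1 because their arrays did not overlap between genotypes. Each sequence is the 250 bases before the transcription start in RefSeq on GRCm38.p6, written 5′ to 3′ on the gene's own strand.
C1qb, chr4:136886201-136886450, minus strand: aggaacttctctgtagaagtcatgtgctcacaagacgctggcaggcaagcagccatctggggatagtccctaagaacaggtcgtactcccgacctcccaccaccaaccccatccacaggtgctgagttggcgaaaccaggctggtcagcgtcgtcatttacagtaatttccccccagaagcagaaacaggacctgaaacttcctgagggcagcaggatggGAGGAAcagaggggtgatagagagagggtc
C1qc, chr4:136892915-136893164, minus strand: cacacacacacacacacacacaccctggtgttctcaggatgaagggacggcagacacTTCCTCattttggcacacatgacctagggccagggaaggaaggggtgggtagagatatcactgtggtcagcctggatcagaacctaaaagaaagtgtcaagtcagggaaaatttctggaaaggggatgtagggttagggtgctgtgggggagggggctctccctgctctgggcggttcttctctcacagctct
Mrc1, chr2:14229164-14229413, plus strand: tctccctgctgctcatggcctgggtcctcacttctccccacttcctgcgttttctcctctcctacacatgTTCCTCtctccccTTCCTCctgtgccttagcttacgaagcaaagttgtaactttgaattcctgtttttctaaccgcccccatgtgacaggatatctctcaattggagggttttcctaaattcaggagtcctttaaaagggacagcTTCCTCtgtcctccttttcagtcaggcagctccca
Cx3cr1, chr9:120068297-120068546, minus strand: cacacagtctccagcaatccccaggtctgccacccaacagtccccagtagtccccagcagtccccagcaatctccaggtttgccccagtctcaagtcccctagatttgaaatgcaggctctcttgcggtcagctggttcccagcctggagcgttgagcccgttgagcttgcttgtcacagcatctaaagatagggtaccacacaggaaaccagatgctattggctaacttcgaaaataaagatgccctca

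The C1qb window has GAGGAA starting 30 bases before the transcription start, and the C1qc window has TTCCTC 193 bases before it. Mrc1 has TTCCTC at 180, 167 and 35 bases before its start, and Cx3cr1 has neither form in this window. Of the 10 members 7 had a window in the RefSeq table, and 5 of those 7, namely Cd68, C1qb, C1qc, Mrc1 and Fcgr3, held the letters on either strand. Among all 32851 windows of this length 23.3% did, which is a share of windows and not of genes. A gene such as Fcgr3 can have several windows. A match describes letters only and does not mark a bound site.

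The arrays held markers of the trachea and also of organs next to it. Cartilage collagen Col2a1 read between 14609 and 27724 and smooth muscle actin Acta2 between 16740.2 and 25172 over the 4 arrays. Cacna1h itself read 981 on labelled knockout replicate 1 and 631 on replicate 2, against 630 on wild-type replicate 1 and 538 on replicate 2, so it was not lower under the knockout label. Where its probes lie relative to the deleted part is not known here, and its signal is therefore no check of the labels. Summed over 8 measured genes, placental and yolk sac transcripts gave 1268 and 43186 in wild type against 2530.5 and 122865 in labelled knockout. Summed over 12 genes of T cells and thymocytes, the signals were 6112 and 16603 in wild type against 34884 and 13574 in labelled knockout. Arrays of the same number were not alike in the T-cell sums. In the spiked hybridisation controls they were closer, with a geometric mean of 5518 and 5449 for replicate number 1 and 13082 and 16126 for number 2.

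None of the 10 macrophage genes passed the test for a difference between the genotypes. Each passed the filter on dim probe sets, a mean level at or above a signal of 397, and was tested with limma among 11694 genes. Their Benjamini-Hochberg adjusted p-values were 0.875 or higher, and 0% of all genes tested passed the threshold of 0.05. At an unadjusted p under 0.05 there was 1 member, Csf1r, where 4.58% of all genes tested (536) lay below that value, 2.83% higher and 1.75% lower in labelled knockout. In 6 of the 10 genes the fitted difference was under 0.15 on the log2 scale in size. The 95% intervals of single members, before adjustment, reached between 0.44 and 0.91 to either side of the estimate. Differences of that size would not have been resolved with 2 arrays per genotype. After adjustment larger ones did not pass either, such as 1.83 for Pax1 of thymic epithelium, adjusted p in limma 0.875. With this design an exact two-sided permutation test of 1 gene cannot give a p under 0.333.

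By direction 4 members were higher and 6 lower in labelled knockout, and their median difference was -0.02 on the log2 scale. The split became 7 against 3 with quantile normalisation and 8 against 2 with each array centred on its median. Over all genes tested the median was 0.04, with 55.9% higher and 44.1% lower, and with centring these became 0.27 and 82.6%. Relative to the median of all genes tested the members' median was -0.06. Centring moves every gene by the same amount, so it cannot change this value. With quantile normalisation the value was 0.02, without labelled knockout replicate 2 it was -0.15 and without wild-type replicate 2 it was 0.13. List medians given below with arrays centred carry the same general shift, and stand beside 0.27 for all genes tested. The arrays of both genotypes overlapped for 7 members and stood apart for 3, namely 1 higher and 2 lower. Of all genes tested 36.1% stood apart, 21.5% higher and 14.6% lower, so the members' share was close to the background. Within both replicate numbers 3 members were higher and 3 lower, where 36% and 26.3% of all genes were. The difference between the arrays of 1 genotype was larger than the difference between genotypes for 9 of 10 members, and for 77% of all genes.

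**Figure D1:**
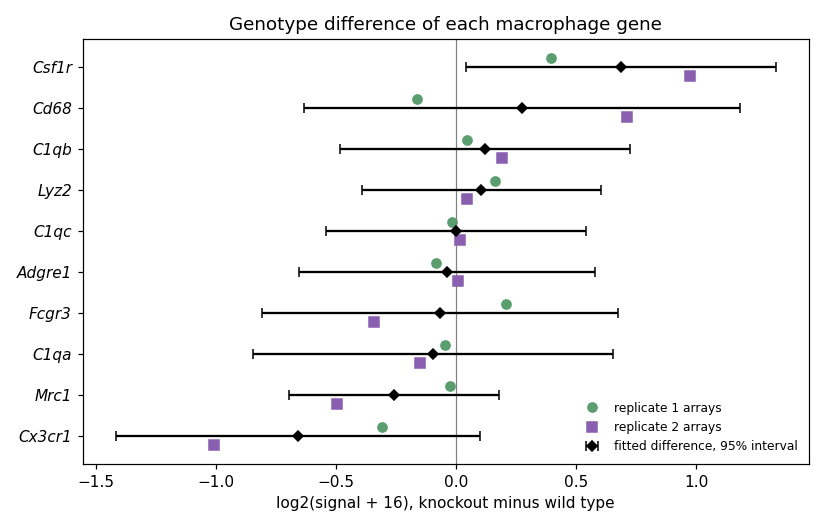
Fitted difference of each macrophage gene, labelled knockout minus wild type on the log2(signal + 16) scale, with its 95% interval (diamond and bar) and the difference within replicate number 1 (circle) and within number 2 (square). The intervals of 9 genes include 0; that of Csf1r runs from 0.04 to 1.33 before adjustment for the 11694 genes tested.

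Csf1r and Cx3cr1, the receptors among the members that receive growth factor and chemokine signals, had the largest differences, in opposite directions. Csf1r encodes the tyrosine kinase receptor for CSF1 and interleukin 34. Its brightest probe set is 1419872_at, with signals of 3089.8 and 3612 in wild type against 4069.6 and 7104 in labelled knockout. Both labelled knockout arrays were above both wild-type arrays, and replicate 2 of the labelled knockout was far above the rest. The means were 3351 ± 369 and 5587 ± 2146 (SD, n = 2 each). On the log2 scale limma gave 0.68, SE 0.27, adjusted p 0.875.

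The 3 probe sets of Csf1r did not give the same direction. On 1419873_s_at the wild-type signals were 1619 and 1638 and those of labelled knockout 2032 and 2525, which gives 0.47. On 1423593_a_at they were 726 and 1001 against 592 and 925, which gives -0.20 with overlapping groups. For the pair that was higher the platform table lists no accession, and for the third it lists one. Tested each on its own among 22519 probe sets, they had adjusted p-values in limma of 0.872, 0.872 and 0.931.

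Single arrays weighed on the brightest Csf1r probe set. Without labelled knockout replicate 1 the log2 difference was 1.08 and the adjusted p in limma 0.00038, in a fit where 492 genes passed. Without labelled knockout replicate 2 it was 0.28, with an adjusted p of 0.997. Over all 14 alternative settings its adjusted p in limma ranged from 0.00038 to 0.9999. Labelled knockout replicate 2 was also the array with placental transcripts, among them Prl8a9, a placental prolactin, at 29879.9 against 4.43 or less on the other arrays. Csf1r is known from trophoblast as well as from macrophages. Between the replicate 1 arrays, where Prl8a9 read 3.44 and 4.43, the Csf1r difference was 0.40. The part of placental RNA in the Csf1r signal was not tested.

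Cx3cr1, the receptor for the chemokine fractalkine, read 540.0 and 608 in wild type against 432 and 294 in labelled knockout. Both labelled knockout arrays were lower than both wild-type arrays. The means were 574 ± 48.4 and 363 ± 97.8 (SD, n = 2 each), and limma gave a log2 difference of -0.66, SE 0.32, adjusted p 0.875. It was -0.31 within replicate number 1 and -1.01 within number 2. Over other settings of the analysis it stayed negative, between -0.93 and -0.39, and did not pass in any of the 12 that gave a value. The dimmer probe set of the gene, 1450019_at, had 127 and 55.1 against 54.6 and 72.7, which is below the filter and shows no separation of the genotypes. The opposite signs of Csf1r and Cx3cr1 were therefore not a change that passed a test in either gene.

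**Figure D2:**
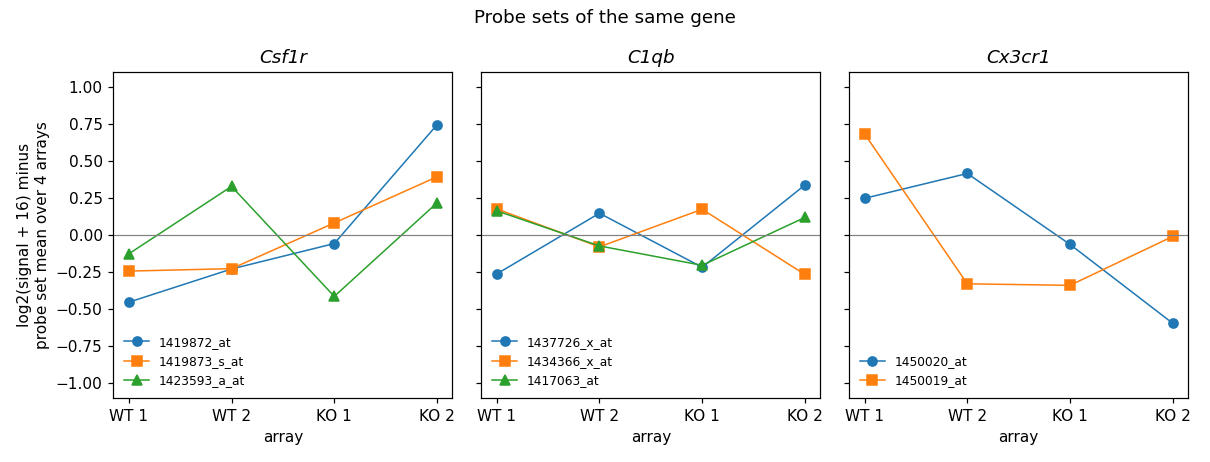
Probe sets of Csf1r, C1qb and Cx3cr1 on the 4 arrays, as log2(signal + 16) minus the mean of that probe set over the arrays (WT, wild type; KO, labelled knockout; each marker and colour is 1 probe set). The Csf1r probe sets 1419872_at and 1419873_s_at are highest on KO 2, whereas 1423593_a_at is highest on WT 2.

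C1qa, C1qb and C1qc encode the chains of C1q, the recognition part of the first complement component, which macrophages make and which tags dying cells and debris. The genes are consecutive protein-coding genes on chromosome 4 in RefSeq, in the order C1qb, C1qc, C1qa. C1qc read 1295 and 1284 in wild type against 1279 and 1298 in labelled knockout. The highest of the 4 values was 1.01 times the lowest, and 0.0171% of genes tested had a smaller ratio of highest to lowest. The means were 1289.5 ± 7.22 and 1289 ± 13.3 (SD, n = 2 each), with a log2 difference of -0.000745 and a 95% interval from -0.54 to 0.54 that is set by the spread shared across genes.

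C1qa read 699 and 535 in wild type against 677 and 479.9 in labelled knockout, so the replicate 1 arrays were higher in both genotypes. Its log2 difference in limma was -0.10, SE 0.32, adjusted p 0.973. C1qb, on 1437726_x_at, had signals of 7989 and 10619 in wild type against 8243 and 12118 in labelled knockout, with the replicate 2 arrays higher in both genotypes. Its log2 difference in limma was 0.12, SE 0.26, adjusted p 0.952. None of the 3 chains passed the test, and their order over the arrays was not the same.

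For C1qb the dimmer probe sets gave the other sign. On 1434366_x_at the wild-type signals were 4835 and 4047 and those of labelled knockout 4828 and 3556, which gives -0.09. On 1417063_at they were 998 and 845 against 770.1 and 967, also -0.09. Groups overlapped on all 3, and probe sets ending in x_at can bind more than 1 transcript.

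**Figure D3:**
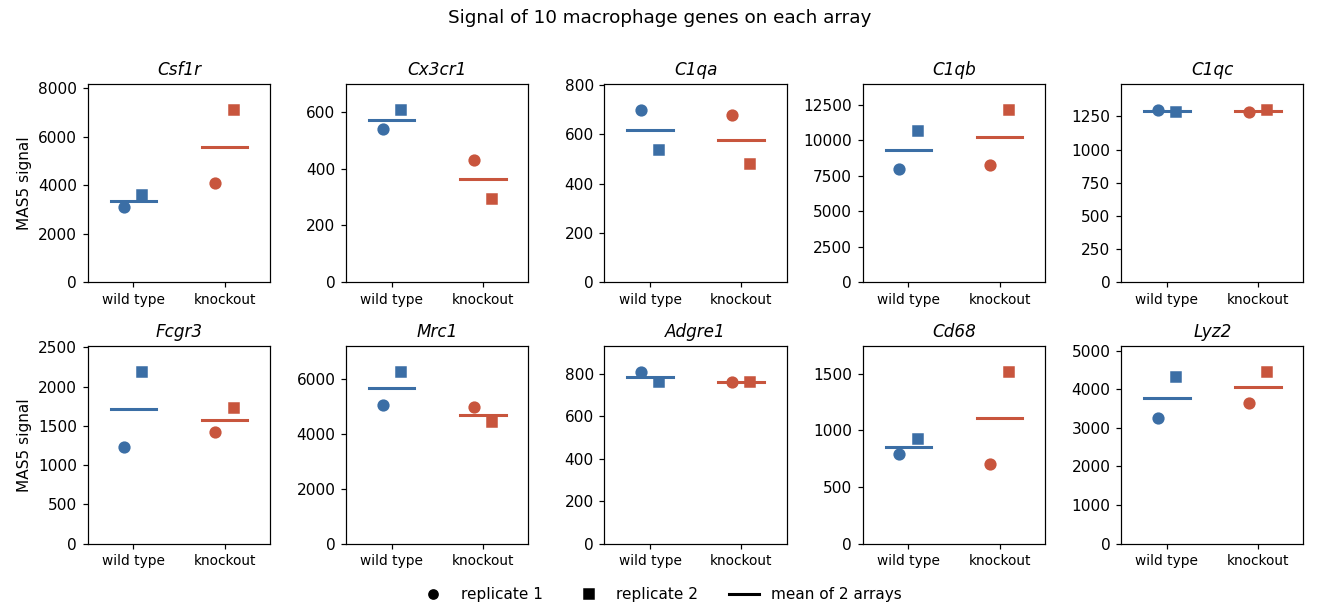
MAS5 signal of the brightest probe set of each macrophage gene on each array, with circles for replicate 1, squares for replicate 2 and a line at the mean of the 2 arrays of a genotype (each panel has its own linear axis from 0). C1qc and Adgre1 are nearly level over the 4 arrays, and the groups stand apart for Csf1r, Cx3cr1 and Mrc1.

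Mrc1, Adgre1 and Fcgr3 encode surface proteins of mature macrophages. Mrc1, the mannose receptor that takes up glycoproteins, read 5069 and 6277 in wild type against 4980.1 and 4447 in labelled knockout. The lower wild-type array and the higher labelled knockout array were close, so the separation was narrow. The means were 5673 ± 854 and 4713 ± 377 (SD, n = 2 each), and limma gave -0.26 on the log2 scale, SE 0.19, adjusted p 0.875. Within replicate number 1 it was -0.03, and within number 2 it was -0.50.

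Adgre1, which encodes the F4/80 antigen, read 809.9 and 759 in wild type against 762 and 763 in labelled knockout. Wild-type replicate 1 was slightly above the other arrays, which were level. The log2 difference was -0.04 with an SE of 0.26, and 0.693% of genes tested had a smaller ratio of highest to lowest. Fcgr3, a low-affinity receptor for immunoglobulin G, read 1231 and 2189 in wild type against 1423 and 1721 in labelled knockout. Both labelled knockout arrays lay between the wild-type arrays, and the log2 difference was -0.07 with an SE of 0.31. Fcgr3 resembles Fcgr2b in sequence, and a probe set for either may bind both.

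Cd68 and Lyz2 encode proteins of the lysosome and of secretion. Cd68, macrosialin of the lysosomal membrane, read 793 and 920.2 in wild type against 706 and 1518 in labelled knockout. The labelled knockout arrays held both the lowest and the highest value, and the log2 difference of 0.27 had an SE of 0.39. It was -0.17 within replicate number 1 and 0.71 within number 2, and it turned to -0.27 without labelled knockout replicate 2. Lyz2, lysozyme of macrophages and neutrophils, read 3253 and 4316 in wild type against 3640.3 and 4455 in labelled knockout, and replicate 2 was higher in both genotypes. Its log2 difference was 0.10 with an SE of 0.21. The related gene Lyz1 is nearly identical, so the Lyz2 signal may include it.

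Part of the members had the same order of replicate numbers in both genotypes. Csf1r, Cd68, Lyz2, C1qb and Fcgr3, 5 of 10 members, were higher on replicate 2 than on replicate 1 in both genotypes, where 26.2% of all genes tested were. Labelled knockout replicate 2 was the highest array for 5 members, Csf1r, Cd68, Lyz2, C1qb and C1qc, against 31.5% of all genes tested. Wild-type replicate 2 was highest for 3 members and wild-type replicate 1 for 2, against 17.2% and 23% of all genes. These groupings were made after the values were seen and no test was run on them.

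The signals that act on macrophages were measured in a list of ligands and receptors. Of its 13 genes 8 were tested and 0 passed. They had 3 higher and 5 lower in labelled knockout and a median log2 difference of -0.03, which was 0.20 with arrays centred and -0.13 over the 12 with a probe set. Leaving out wild-type replicate 2 gave -0.15, whereas leaving out labelled knockout replicate 2 gave 0.11. Csf1, the main ligand of the receptor encoded by Csf1r, read 1008 and 1038 in wild type against 894 and 696 in labelled knockout, or -0.37 on the log2 scale, SE 0.27. Il34, the other ligand, was below the filter at 139, 84.1, 106 and 71.6 on wild-type 1 and 2 and labelled knockout 1 and 2. Cx3cl1, the ligand of the receptor encoded by Cx3cr1, was below the filter as well, at 222 to 355. C3ar1, the receptor for the complement fragment C3a, read 567 and 488 in wild type against 374 and 293 in labelled knockout, or -0.64 in limma, SE 0.31, adjusted p 0.875. Tgfb1, which encodes transforming growth factor beta 1, had 0.40, and Ccr2, the chemokine receptor of inflammatory monocytes, had 0.36.

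Transcription factors of the myeloid program had 8 of 12 genes tested and 0 that passed. The log2 difference was below 0 for 5 of the 8, and their median was -0.12, or 0.11 with arrays centred. It was -0.36 over the 11 genes with a probe set, of which 8 were lower, -0.44 when wild-type replicate 1 was left out and -0.28 when labelled knockout replicate 2 was. Zeb2, a repressor needed for macrophage identity and also active in mesenchyme, read 8523 and 6796 in wild type against 5951 and 4199 in labelled knockout. Its groups did not overlap, and limma gave -0.60 on the log2 scale, SE 0.23, adjusted p 0.875. Runx1, a factor of blood formation that cartilage progenitors also use, had -0.66, and Maf, a factor of macrophages and chondrocytes, had -0.36. Spi1 was below the filter on every array, at 186 and 194 in wild type against 120.0 and 166 in labelled knockout. PU.1 transcripts could thus not be compared by the test.

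Scavenger and surface genes of resident macrophages had 13 of 20 genes tested, 0 passed, and 9 of 13 were lower. The median log2 difference was -0.16. With arrays centred it was 0.08 with 8 of 13 higher, where 82.6% of all genes tested were higher. When wild-type replicate 1 was left out it was -0.33, and over all 20 genes it was -0.24, with 16 lower. Lyve1, a hyaluronan receptor of vessel-associated macrophages and of lymphatic endothelium, read 3217 and 3921 in wild type against 2996 and 1923 in labelled knockout, or -0.56 on the log2 scale, SE 0.25. Cd163, the receptor for haemoglobin bound to haptoglobin, read 519 and 1251 in wild type against 630.2 and 294 in labelled knockout, with differences of 0.27 and -2.03 within replicate numbers 1 and 2. F13a1, coagulation factor XIII of macrophages, had -0.29, and Stab1, a scavenger receptor of macrophages and sinusoidal endothelium, had 0.21. Timd4 and Folr2, markers of long-lived resident macrophages, were below the filter at 141 to 288 and 328 to 408. Mrc1, Lyve1 and Stab1 are also known from endothelium, whose 11 listed genes had a median of -0.09 (0.14 with arrays centred, -0.27 and 0.08 when labelled knockout replicate 1 or 2 was left out), with Kdr, a receptor for vascular growth factor, at -0.60 and Emcn and Cdh5 at -0.26 and -0.17.

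Fc receptor and ITAM signalling genes had 7 of 15 tested, 0 passed, and a median log2 difference of -0.22, which was 0.01 with arrays centred. Over the 12 genes with a probe set it was -0.08, with 6 higher and 6 lower, and it lay between -0.19 and -0.01 when each array was left out, nearest 0 without wild-type replicate 2. Tyrobp, an adaptor of activating receptors, read 2164 and 2034 in wild type against 2328 and 2331 in labelled knockout, a difference of 0.15. Fcer1g, the common gamma chain that Fcgr3 needs at the surface, had 0.05 with an SE of 0.20. Sirpa, which receives the signal not to engulf, Fcgr2b, the inhibitory Fc receptor, and Fcgr1, the high-affinity one, had -0.22, -0.36 and -0.33. Trem2 and Itgam were dim on all arrays, at most 29.3 and 70.1. Defining markers of the lineage were thus unevenly visible: all 10 members passed the filter, while Spi1, Trem2, Itgam and Timd4 did not.

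Of the 9 other complement genes 4 were tested and 0 passed. All 4 were lower in labelled knockout, their median being -0.30 on the log2 scale, and with arrays centred 3 of 4 were lower with a median of -0.07. Serping1, the inhibitor of the C1 complex, read 3852 and 4501 in wild type against 4119.8 and 2632 in labelled knockout, a difference of -0.34. C1s1, a protease of that complex, and Cfp, properdin, had -0.26 and -0.34, and Cd93, a surface protein of endothelium and myeloid cells, had -0.16. The list's median was 0.06 within replicate number 1 and -0.75 within replicate number 2, and it was 0.06 without labelled knockout replicate 2. Phagosome and lysosome genes, 16 of 19 tested, had 0 that passed, 11 higher, 5 lower and a median of 0.09. With arrays centred 15 were higher and the median was 0.32, where 82.6% of all genes tested were higher. Without labelled knockout replicate 2 it was -0.07, with 6 higher and 10 lower. Without wild-type replicate 1 it was -0.02, with 8 higher and 8 lower. Leaving out labelled knockout replicate 1 gave 0.22 and leaving out wild-type replicate 2 gave 0.20. Lgmn, an endopeptidase of the lysosome, had 0.44 with values of -0.07 and 0.96 within replicate numbers 1 and 2. Laptm5, a lysosomal protein of leukocytes, had 0.40, and Lamp2, a lysosomal membrane protein, -0.32.

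Genes shared by all leukocytes followed another order over the arrays than the macrophage genes. All 10 measured genes were higher in labelled knockout, under each scaling, and 0 passed. Their median was 0.53 on the log2 scale, with 1.16 within replicate number 1 and 0.04 within number 2, and 8 of the 10 were highest on labelled knockout replicate 1. Without that array 8 of 10 were higher and the median was 0.19, without wild-type replicate 1 it was 0.30 and without labelled knockout replicate 2 it was 0.94. When each gene was the mean of all its probe sets, 8 were tested, 7 higher and 1 lower, with a median of 0.36. Ptprc, the CD45 antigen of leukocytes, read 1275 and 2027 in wild type against 4794 and 1777 in labelled knockout. Arhgdib, Coro1a and Rac2, which act on the leukocyte cytoskeleton, had log2 differences of 0.70, 0.86 and 1.11. No macrophage member was highest on labelled knockout replicate 1, where 28.3% of all genes tested were highest. The difference between the lists was not tested.

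Markers of lymphoid and thymic cells that passed the filter were also highest on labelled knockout replicate 1, whereas their order over the other arrays differed between lists. The filter takes the mean level over all 4 arrays, so high values on labelled knockout arrays can help a gene to pass it. The 8 tested genes of T cells and thymocytes had a median of 1.33, with 2.80 and -0.14 within replicate numbers 1 and 2, and leaving out labelled knockout replicate 1 gave 0.71 and leaving out wild-type replicate 1 gave 0.61. Cd4 and Dntt of this list were below the filter and highest on wild-type replicate 2. Over its 12 genes with a probe set the median was 0.92, with 10 higher and 2 lower. Cd3e, a chain of the T-cell receptor complex, read 787 and 2004 in wild type against 4529.8 and 1311 in labelled knockout, and Thy1, Ptcra and Cd3d had log2 differences of 1.25, 1.81 and 1.66. Thymic epithelium had a median of 1.95 over 4 tested genes, namely Pax1 (1.83), Psmb11 (2.11), Ccl25 (1.72) and Prss16 (2.07). Over the 6 with a probe set it was 1.77, with 5 higher and 1 lower. Among genes of dendritic cells and MHC class II 4 of 5 tested were higher, namely the MHC class II genes H2-Ab1, H2-Aa and H2-Eb1 and the invariant chain gene Cd74, and the median of the 5 was 1.25. The remaining gene, Zbtb46, had -0.14 and was highest on wild-type replicate 1. Over the 10 with a probe set the median was 0.67, with 7 higher and 3 lower. H2-Ab1, Cd74 and H2-Aa had log2 differences of 1.24, 1.26 and 1.32, while Flt3, Itgax, Xcr1, Siglech and Ccr7 of dendritic cells were below the filter. Of the B and NK cell list only Gzma, a protease of cytotoxic cells, was tested, at 2.18, and over the 8 with a probe set the median was 0.22, with 5 higher and 3 lower. None of these genes passed, and how much of the Ptprc signal came from lymphoid cells was not tested.

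Other cells of the myeloid lineage were measured too. Monocyte and neutrophil genes, 6 of 17 tested, had a median log2 difference of 0.12, with 4 higher and 2 lower. Without labelled knockout replicate 2 it was -0.17, with 2 higher and 4 lower, and without its replicate 1 it was 0.42. Over the 14 genes with a probe set it was 0.08, with 8 higher and 6 lower. Plac8, of monocytes and lymphoid cells, had 0.72 and S100a8, a calcium-binding protein of neutrophils, 0.43. Ltf, lactoferrin of neutrophils and glands, had -0.63. The neutrophil granule genes Mpo and Elane were below the filter, at most 184 and 77.5, whereas S100a9 read 2466 to 4406, S100a8 1907 to 3234, Ltf 1078 to 2234 and Lcn2 495 to 2081 over the arrays. Neutrophils also make Lyz2, and their part in its signal was not tested. Osteoclast genes, macrophage relatives that resorb bone and cartilage, had 4 of 9 tested, all 4 higher, with a median of 0.26. The 5 below the filter were all lower, and over all 9 the median was -0.22. Leaving out wild-type replicate 2 gave 0.52 over the 4, and leaving out labelled knockout replicate 1 gave 0.50. Mmp9 had 0.86, Acp5 0.37 and Ctsk 0.14, and those below the filter included Dcstamp and Ocstamp, which are needed for cell fusion, at most 19.4 and 13.7. Mast cells had a median of -0.16 over 5 tested genes (0.08 with arrays centred), which was 0.55 when wild-type replicate 2 was left out and -0.36 when wild-type replicate 1 was, with Kit, their growth factor receptor, at -0.37, Cpa3, a granule protease, at 0.37 and Hdc, which makes histamine, at -0.16.

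The remaining lists served as markers of other tissue in the samples. Red blood cell genes had a median of 0.61 over 4 tested genes, with 0.08 and 1.32 within replicate numbers 1 and 2, and Slc4a1, Hba-x and Alas2 had 0.42, 1.16 and 0.36. Placental and yolk sac genes had a median of 1.20 over 6 tested genes, which leaving out labelled knockout replicate 2 turned to -0.66 and leaving out wild-type replicate 1 to -0.68, with Tpbpa, a trophoblast gene, at 37379.7 on labelled knockout replicate 2 and at most 374 elsewhere. Psg23 read 13349 on labelled knockout replicate 2 and at most 438 elsewhere. Apoa1 read 11262.5 on wild-type replicate 2 and at most 447 elsewhere. Their log2 differences were 2.22 and -2.21, with SEs of 1.52 and 1.56. Within replicate number 1 they were -0.78 and 0.19. Salivary gland genes had 0.30 over 3 tested, with Smgc at 3.74 and 28112 in wild type against 12724 and 4139 in labelled knockout, and Bhlha15 and Aqp5 at 0.30 and 0.03. Leaving out wild-type replicate 1 turned that median to -0.92 with all 3 lower, and leaving out wild-type replicate 2 gave 1.35. The trachea's own list had -0.28 over 13 tested genes, with Sox2 of the foregut, Scgb1a1 of club cells and Tbx4 of the mesenchyme at -0.60, -0.92 and -0.68. With arrays centred its median was -0.05, with 6 of 13 higher, where 82.6% of all genes tested were higher. Beside these shifts the macrophage list summed to 24769 and 31119.9 in wild type against 26213 and 34198 in labelled knockout, so the higher sum within each genotype was on replicate 2. Bright probe sets weigh most in such a sum, C1qb above all with 8243 and 12118 in labelled knockout. Cx3cr1, C1qa and Mrc1 were lower on labelled knockout replicate 2 than on its replicate 1, and the other members higher.

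**Figure D4:**
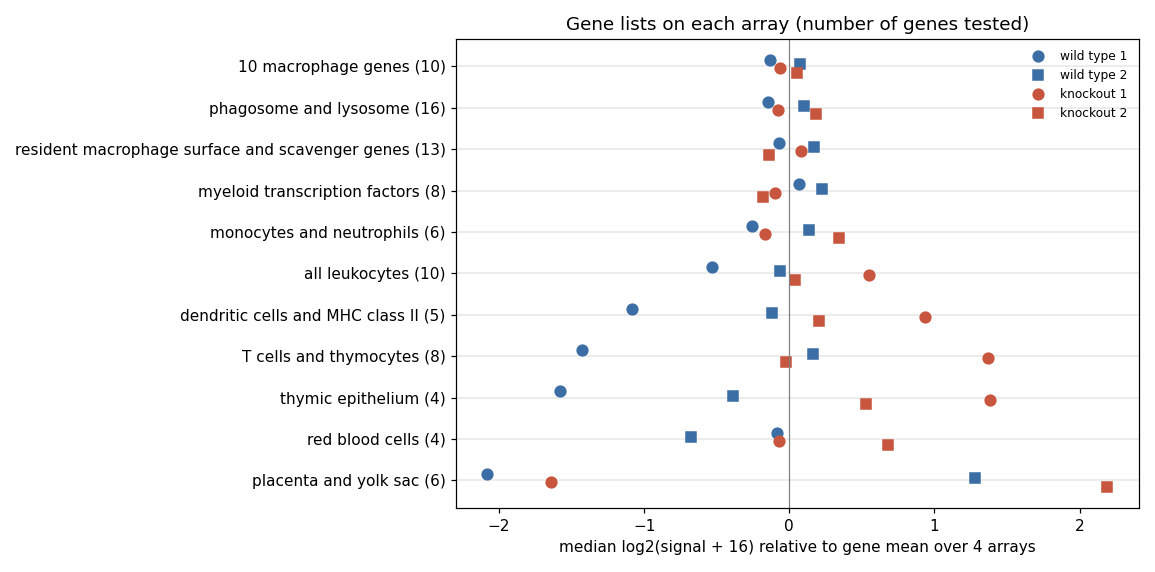
Median over the tested genes of each list shown of log2(signal + 16) relative to the gene's mean over the 4 arrays, for each array (blue wild type, red labelled knockout, circles replicate 1, squares replicate 2). The median of the 10 macrophage genes lies between -0.13 and 0.07 on every array, whereas that of T cells and thymocytes runs from -1.43 to 1.37. Among lists not shown, macrophage ligands and receptors lie between -0.03 and 0.10, and Fc receptor and ITAM signalling genes between -0.14 and 0.03.

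Averaged over the members, wild-type arrays 1 and 2 stood at -0.11 and 0.10 and labelled knockout arrays at -0.09 and 0.10, as log2 values relative to each gene's mean. The genes outside the lists closest to this profile by root mean square distance over these 4 arrays were Prpf4b, Med15 and Sgpp1, at distances of 0.0050, 0.0077 and 0.0084. Among 11549 such genes 1067 lay within 0.1, and only Lyz2 and C1qc of the members did, so a small distance over 4 arrays was common.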

How the data were processed

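Gene expression in embryonic trachea was measured on 4 Affymetrix arrays, 2 of each genotype, after SPIA amplification of the RNA per the labels' protocols. The authors deposited 1 MAS5 intensity (signal) for each probe set, on a linear scale per the submitters' processing notes and the values. No MAS5 version or setting is named in the sources used here, and detection calls were not used. The mean trimmed by 2% at each end was 1500 on every array.

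Of 45101 probe sets, 34945 had exactly 1 gene in the platform table, 932 several and 9160 none listed, and 64 were controls. Symbols of 34741 were updated through RefSeq gene identifiers (GRCm38.p6). Each gene took its probe set with the highest mean log2(signal + 16). The 11694 genes at or above the median level of all probe sets, a signal of 397, were tested with limma 3.58.1 in R 4.3.3, with genotype alone in the model, the prior variance following intensity, and a Benjamini-Hochberg threshold of 0.05. Differences on this scale understate those of dim genes. SDs are over 2 arrays, SEs are moderated, and the number of arrays limits the precision.

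The 10 members and all gene lists were chosen with earlier results of these data known. Named genes are the members, up to 3 tested genes per list by unadjusted p, further genes given by name, and the 3 genes of closest profile. Stab1, Cfp, Prss16, H2-Eb1, Zbtb46, Prl8a9, S100a9, Lcn2, Acta2, Col2a1 and genes named only as below the filter were otherwise chosen after their values were seen. List medians are descriptions without a test. The fit was tested on simulated data. Alternatives were the pseudocount, the filter, the scaling, the probe set rule, the trend, array weights, a replicate block and leaving out each array. Figures were drawn with matplotlib 3.10.9.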

Additional observations from a re-analysis of the deposited data

How the results depend on the processing

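Across the alternatives, 166 of 173 recomputed values for the count of genes passed, the members' median and the members' differences kept their side of the threshold or moved by less than the spread between arrays. A member's change of sign counted as kept where neither fit passed, so this count does not describe how stable the signs were. Some of the differences could not move at all. The replicate block leaves them as they were, and so does testing the brightest probe set of a gene on its own. The count of genes past the threshold was 0 in limma and ranged from 0 to 492 when each array was left out: 492 with labelled knockout replicate 1 left out, 104 with its replicate 2 left out, 1 without wild-type replicate 2 and 0 without wild-type replicate 1. The cause was not tested. Csf1r was the only member among those calls, without labelled knockout replicate 1, and its log2 difference ranged from 0.28 to 1.08 with an array left out. The members' median of -0.02 ranged from -0.10 without labelled knockout replicate 2 to 0.15 without wild-type replicate 2. It was 0.11 over the 4 members left by a filter at the 75th percentile of level, a change made by testing fewer genes, and 0.21 with arrays centred, where all genes shifted to 0.27. Small member differences changed sign with scaling: C1qa, C1qc and Adgre1 under quantile normalisation and centring, and Fcgr3 under centring. Under no such setting did they pass. Each of Cd68, Lyz2, C1qa, C1qb, C1qc, Adgre1 and Fcgr3 changed sign in at least 1 fit with an array left out. Csf1r, Cx3cr1 and Mrc1 kept their sign in all of those fits. With the replicate number as a replicate block 0 genes passed and the smallest adjusted p was 0.158. Over the genes tested, deviations from the genotype mean correlated at 0.32 between arrays of the same number. With 2 arrays per genotype these deviations are equal and opposite, so both numbers give this same value. Crossing the pairs would only reverse its sign. The numbers are shared in the labels without a stated meaning, and no fit with crossed pairs was run. Testing each probe set on its own was added after the data were seen. A fit without 1 array assumes that the lone array of its genotype varies like the other genotype's.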
